A study of Mus musculus with 15 samples.

Results

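Heat shock proteins and their DnaJ co-chaperones were followed in mouse ventricle during induction of the RNA-binding protein CELF2. Members were all genes of the expression table whose symbol began with Dnaj, Hspa, Hspb, Hspd, Hspe, Hsph, Hsp90 or Hsf, together with Cryab. The rule itself uses no measured value, though it was set with earlier results of these data known. This gave 64 of 16199 genes, and 57 of them reached the mean of 1 RPKM that was required for testing, as did 10557 genes in all. RPKM counts reads per kilobase of a gene's coding sequence relative to the mapped reads of the library, so it is already scaled for gene length and levels of different genes can be set side by side.

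The study sequenced poly(A)+ RNA from 15 ventricles of FVB mice aged 14 to 16 weeks, 3 for each of 5 groups. Hearts at 12 h, 24 h, 72 h and 7 d of induction came from bitransgenic MHCrtTA/TRECUGBP2 animals, in which a cardiac myosin promoter drives the reverse tetracycline transactivator and the transactivator switches on a FLAG-tagged human CELF2 cassette. Control hearts came from animals with MHCrtTA alone that received doxycycline for 72 h. Every animal, control animals included, was fed 2 g/kg doxycycline by the labels and methods (a mouse table of the study gives a higher dose), and food had been taken away for some hours beforehand. The transgene is thus driven in cardiomyocytes of a whole ventricle sample, from which the atria and a small piece of the apex had been cut. Controls stand for a single duration of feeding, and hearts are numbered within a group only to name them.

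Chaperones bind unfolded stretches of other proteins and keep them from clumping. Members of the Hsp70 family do so in cycles of ATP binding and hydrolysis, DnaJ proteins deliver clients and trigger hydrolysis through their J domain, and Hsp110 proteins exchange the spent nucleotide. Hsp90 finishes the folding of kinases and receptors, the Hsp60 and Hsp10 pair forms a closed folding chamber in mitochondria, and small heat shock proteins hold unfolding clients without ATP. Heart muscle holds large amounts of small heat shock proteins, which associate with desmin, titin and other parts of the contractile apparatus. The inducible genes among them are switched on by heat shock factors, above all Hsf1, which bind repeats of the letters GAA and TTC in promoters.

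The induced gene (Cugbp2 in the table) lay between 84.5 and 192 RPKM at 12 h, 112 and 173 RPKM at 24 h, 213 and 261 RPKM at 72 h and 261 and 359 RPKM at 7 d, against 8.54 to 11.3 RPKM in control hearts, so every induced heart was above every control heart. All 6 cardiomyocyte markers examined were detected, with a summed level of 15920 to 17820 RPKM at 7 d, against 20120 to 21140 RPKM in control hearts. Markers of atrial myocytes summed to between 23.6 and 310.5 RPKM over the 15 hearts, and markers of red cells to between 985 and 2917 RPKM. Those of adipocytes summed to between 5.85 and 7.47 RPKM at 7 d, against 11.3 to 18.1 RPKM in control hearts, with 2 of 3 called lower (Cfd and Car3), and their part in the members' values was not tested. Sample titles carry 1 of 3 codes whose meaning is not stated, here lettered in the order of their numbers. Code A marks heart 1 of each group and 72 h heart 2, code B marks the other 12 h, 24 h and control hearts, and code C marks 72 h heart 3 and 7 d hearts 2 and 3. Summed mRNA of Y-linked genes was between 52.3 and 77.8 RPKM in all 7 d and 72 h hearts, in 24 h hearts 2 and 3 and in control heart 3, and at most 0.06 RPKM in the 6 other hearts, which include every 12 h heart. Without read totals depth is unknown, and precision is given by the spread between hearts.

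Small heat shock proteins were the most abundant class. Cryab (αB-crystallin, a holdase of desmin filaments) averaged 2306 RPKM over the 15 hearts and ranked 15 among all genes of the table, and Cryab and Hspb7 together made up 44.6% of the summed RPKM of all 64 members. After these came Hspa8 (the constitutive cytosolic Hsp70), Hsp90ab1 (the constitutive cytosolic Hsp90), Hspb6, Hspb1, Hspa9 (the mitochondrial Hsp70), Hspb8, Hspe1 (Hsp10) and Hspd1 (Hsp60), with means between 785 and 147 RPKM. In all, 13 members averaged at least 100 RPKM. The 7 members under 1 RPKM were Dnajb3, Dnajb7, Dnajb13, Dnajc5b, Dnajc5g, Dnajc6 (auxilin, a partner of Hsp70 in clathrin uncoating) and Hsf5, and none of them exceeded 0.43 RPKM in any heart.

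**Figure D1:**
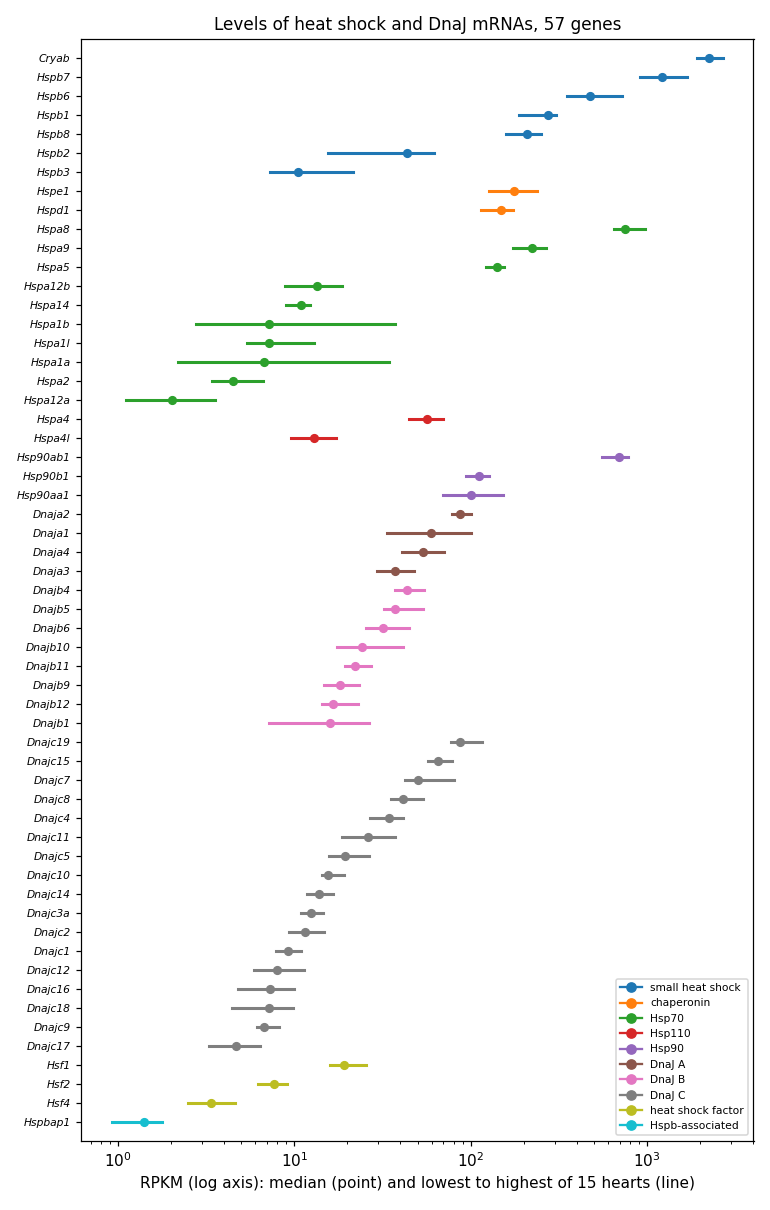
Level of the 57 tested members in RPKM (log axis), grouped by class; points are medians and lines run between the lowest and highest of the 15 hearts. Cryab, with a mean of 2306 RPKM, lies farthest to the right, and Hspa1a and Hspa1b have the longest lines, with ratios of 15.7 and 13.4 between the highest and lowest heart.

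The summed level of the members was 1.78% to 1.79% of the summed RPKM of all genes in the 7 d hearts, against 1.92% to 1.98% in control hearts. It was 1.77% to 1.89% at 12 h, 1.84% to 1.99% at 24 h and 1.87% to 1.94% at 72 h. By group means, 20 of the 57 tested members were highest at 7 d and 21 were lowest at 7 d. The same count was not made over all genes. The median ratio of the highest to the lowest heart was 1.64. For 17 of the 57 tested members this ratio was under 1.5, and for 3 it was over 4 (Hspa1a, Hspa1b and Hspb2).

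At 7 d, 10 of the 57 tested members passed the test against control, 8 higher and 2 lower, which is 17.5% of the members beside 9.99% of all genes tested. By direction these were 14% higher and 3.51% lower, beside 5.83% and 4.16% of all genes. At the earlier time points limma called no member. At 12 h it was 0 of 57 members, beside 0.388% of all genes (0.104% higher and 0.284% lower), with 2 members at an unadjusted p under 0.05. At 24 h it was 0 of 57, beside 0.0947% of all genes (0.0379% higher and 0.0568% lower), with 7 members at an unadjusted p under 0.05. At 72 h it was 0 of 57, beside 0.597% of all genes (0.237% higher and 0.36% lower), with 10 at an unadjusted p under 0.05. Hearts at 24 h and 12 h differed for 0 of 57 members too, beside 0.559% of all genes (0.341% higher and 0.218% lower). Here 3 members were at an unadjusted p under 0.05. Of all 10557 genes, unadjusted p was under 0.05 for 1294 at 12 h, 972 at 24 h and 1442 at 72 h. For 24 h against 12 h it was under 0.05 for 713 genes. The median log2 change of the members at 7 d was -0.04, beside 0.03 for all genes, with members on both sides of 0. All comparisons with control rest on the same 3 control hearts.

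The 10 calls at 7 d were Hspb3, Hspa1l, Dnajc12, Dnajc7, Dnajc11, Dnajb5, Hspa9 and Dnajc5, which were higher, and Dnajb1 and Cryab, which were lower. For all 10 the 7 d hearts and the control hearts did not overlap. Over all 57 tested members the 7 d hearts lay wholly above control for 15 and wholly below for 10, beside 18.3% and 13.4% of all genes. Within title code A, which holds 1 heart of either group, the 10 differences were between 0.25 and 1.55 in size on the log2 scale. Their direction could only be that of the calls, since the groups did not overlap. Code C holds no control heart, so time and code cannot be told apart for 7 d hearts 2 and 3. With the code as a covariate 9 of the 10 kept their call (all but Dnajc5) and 5 further members were called (Dnajc1, Dnajc14, Hspa14, Hspb2 and Hspe1), with 8 higher and 6 lower in all, beside 12.7% of all genes in that fit. Y-linked mRNA summed to at least 58.6 RPKM in every 7 d heart and to 53.4 RPKM in control heart 3. In control hearts 1 and 2 it was at most 0.06 RPKM. Among these hearts only control heart 3 keeps time and this difference apart. With the Y-linked mRNA level as a covariate 5 kept their call (Cryab, Dnajb1, Dnajc7, Hspa1l and Hspb3), beside 4.11% of all genes in that fit. With both covariates 1 kept it (Hspa1l), beside 1.78% of all genes. Without the hearts of code C only heart 1 is left at 7 d, so calls of that fit are not counted. Its log2 changes were 0.73 for Hspb3, 0.27 for Dnajc5 and -0.44 for Cryab. Upper-quartile scaling turned the split into 7 higher and 4 lower, with Dnaja3 and Hsp90ab1 added to the lower side. The shares of all genes by direction in that fit are not given. Genes of a clock list, which also held Rbm3 and Cirbp, moved in the same comparison, 3 of 16 higher and 7 lower, Rbm3 among the lower. Arntl changed by 2.32 ± 0.19 (adjusted p = 8.58e-06) and Dbp by -1.63 ± 0.35 (adjusted p = 0.00961). The hour of harvest is not given, and its part in the members' values was not tested.

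**Figure D2:**
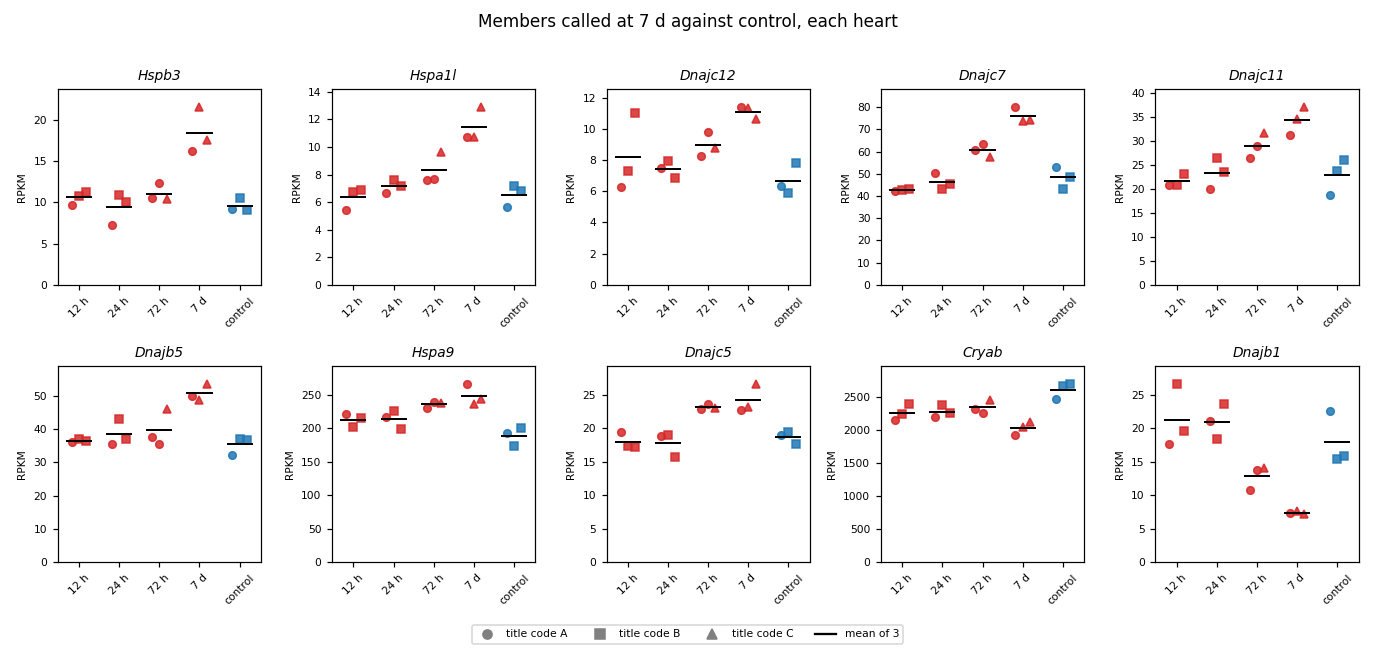
RPKM of the 10 members called at 7 d against control, one point per heart (red, induced; blue, control), with the mean of 3 hearts as a line and the code of the sample title as the symbol; axes start at 0. In each of the 10 panels the 3 points at 7 d lie wholly above or wholly below the 3 control points; Hspb3 reaches 21.5 RPKM at 7 d, and Dnajb1 lies at 7.14 to 7.67 RPKM.

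Among the small heat shock proteins, Hspb3 was called higher and Cryab lower at 7 d against control. The 5 others were not called in any comparison. Hspb3, which forms mixed complexes with Hspb2 in muscle, is a single-exon gene of low abundance. It was at 16.2, 21.5 and 17.6 RPKM in the 7 d hearts, against 9.16, 10.5 and 9.03 RPKM in control hearts, and at 9.71, 10.8 and 11.3 RPKM at 12 h, 7.26, 10.9 and 10.1 RPKM at 24 h and 10.5, 12.3 and 10.3 RPKM at 72 h. The 3 hearts of 7 d stood above all 12 others, at 1.93 times the control mean (log2 change 0.91 ± 0.15 (SE), adjusted p = 0.00151). The difference was 0.79 between the 2 hearts of code A.

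Cryab was at 1921, 2049 and 2125 RPKM in the 7 d hearts, against 2467, 2663 and 2700.4 RPKM in control hearts. At the earlier times it was at 2149, 2246 and 2402 RPKM at 12 h, 2192, 2375 and 2261 RPKM at 24 h and 2317, 2262 and 2458 RPKM at 72 h. Every induced heart, at 7 d and at each earlier time, was below every control heart. Only the change at 7 d was called (log2 change -0.36 ± 0.08 (SE), adjusted p = 0.00909). The log2 changes at 12 h, 24 h and 72 h were -0.20, -0.20 and -0.15, none of them called. Nor was 7 d against 12 h called (log2 change -0.16, adjusted p = 0.187). The summed cardiomyocyte markers were lower in the same 7 d hearts, with 1 of 6 called lower (Myh6, -0.36 ± 0.09, adjusted p = 0.0261) and 1 called higher (Mybpc3). In a bulk sample fewer cells of a type and less RNA per cell cannot be told apart.

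Hspb2 lies next to Cryab on mm9 chromosome 9 (Hspb2 at 50559177 to 50560459 on the minus strand, Cryab at 50560863 to 50564738 on the plus strand), and the neighbours varied differently. Hspb2 was at 15.6 to 25.02 RPKM in the 6 hearts of title code A and at 33.2 to 62.4 RPKM in the 9 others, with no overlap. Its change at 7 d against control did not pass (log2 change -0.64 ± 0.49 (SE), adjusted p = 0.475). Cryab ranged over 1921 to 2467 RPKM and 2049 to 2700 RPKM in the same sets of hearts. With the title code as a covariate Hspb2 was called lower (adjusted p = 0.0150).

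Hspb7, a cardiovascular small heat shock protein, was the second most abundant member. It was at 1043, 937 and 1188 RPKM at 12 h, 911, 1644 and 1035 RPKM at 24 h, 1317, 1329 and 1695 RPKM at 72 h and 1124, 1510.2 and 1217 RPKM at 7 d, against 1141, 1685 and 1262 RPKM in control hearts. Hspb6 (Hsp20), a phosphoprotein of heart and smooth muscle, was at 377, 423 and 456 RPKM at 12 h, 351, 505 and 437 RPKM at 24 h, 471, 473 and 653 RPKM at 72 h and 501, 632 and 723 RPKM at 7 d, against 383, 533 and 519.8 RPKM in control hearts. Its 7 d hearts overlapped the controls (log2 change 0.37 ± 0.18 (SE), adjusted p = 0.235), and 7 d against 12 h missed the threshold (log2 change 0.55 ± 0.18 (SE), adjusted p = 0.0522), which it passed with the filter at 5 RPKM (adjusted p = 0.0469) and with the title code as a covariate (adjusted p = 0.0101).

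Hspb1 (Hsp25 in mouse), which binds actin filaments, was at 189, 274 and 304 RPKM at 12 h, 209, 285 and 298 RPKM at 24 h, 192, 195 and 252 RPKM at 72 h and 216, 277 and 275 RPKM at 7 d, against 223, 278 and 303 RPKM in control hearts. Hspb8, which works with the co-chaperone Bag3 in clearing damaged proteins, was at 196, 222 and 223 RPKM at 12 h, 159.6, 251 and 216 RPKM at 24 h, 180.3, 206 and 237 RPKM at 72 h and 171, 209 and 206 RPKM at 7 d, against 203, 217 and 249 RPKM in control hearts. The groups of Hspb7, Hspb1 and Hspb8 overlapped in all 6 comparisons, and their log2 changes at 7 d against control were -0.08 (Hspb7), -0.07 (Hspb1) and -0.19 (Hspb8).

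Of the 10 Hsp70 genes, all tested, Hspa9 and Hspa1l rose at 7 d and none fell. Hspa9 (mortalin), the Hsp70 of the mitochondrial matrix that pulls in imported proteins, was at 266, 237 and 243 RPKM in the 7 d hearts, against 193, 174 and 200.5 RPKM in control hearts. It was at 222, 201 and 215 RPKM at 12 h, 218, 226 and 199 RPKM at 24 h and 231, 239 and 238 RPKM at 72 h, so that every induced heart but 24 h heart 3 was above every control heart. The 7 d change was 0.40 ± 0.08 (adjusted p = 0.0087), and it ended as a call without control heart 2 (adjusted p = 0.0514). At 72 h the hearts also lay above control, without reaching the threshold (log2 change 0.32 ± 0.08 (SE), adjusted p = 0.116).

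Hspa1l, an Hsp70 known mainly from testis, was at 10.7, 10.7 and 12.9 RPKM in the 7 d hearts, against 5.65, 7.14 and 6.82 RPKM in control hearts. At the earlier times it was at 5.42, 6.76 and 6.89 RPKM at 12 h, 6.70, 7.63 and 7.18 RPKM at 24 h and 7.61, 7.66 and 9.65 RPKM at 72 h, and the 7 d hearts were above all 12 others (log2 change 0.76 ± 0.13 (SE), adjusted p = 0.00252). It is 1 of 3 neighbouring Hsp70 genes on mm9 chromosome 17, at 35109648 to 35116229 on the plus strand, beside Hspa1a (35106144 to 35109069, minus strand) and Hspa1b (35093381 to 35096183, minus strand). The coding sequence of Hspa1b is 82.2% identical to that of Hspa1l and 99.4% identical to that of Hspa1a. The 7 d and control hearts overlapped for Hspa1a and Hspa1b, which were not called (adjusted p = 0.378 and 0.39).

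Hspa1a and Hspa1b, the stress-inducible cytosolic Hsp70 genes, had the highest ratios of highest to lowest heart among the 57 tested members. Hspa1a was at 6.74, 26.6 and 7.23 RPKM at 12 h, 17.8, 16.2 and 34.4 RPKM at 24 h, 2.19, 8.68 and 6.16 RPKM at 72 h and 3.44, 3.76 and 4.91 RPKM at 7 d, against 18.2, 4.30 and 6.10 RPKM in control hearts. Hspa1b was at 7.21, 30.5 and 8.55 RPKM at 12 h, 18.9, 18.2 and 37.3 RPKM at 24 h, 2.78, 9.20 and 7.11 RPKM at 72 h and 4.12, 4.32 and 5.56 RPKM at 7 d, against 19.7, 4.83 and 6.95 RPKM in control hearts. The 3 hearts of 7 d were among the 5 lowest of the 15, and 12 h heart 2, 24 h heart 3 and control heart 1 were the 3 highest. At 24 h no heart was below 16.2 RPKM for Hspa1a or 18.2 RPKM for Hspa1b, though control heart 1 was higher than 2 of the 3 hearts, and the change did not pass (Hspa1a log2 change 1.39 ± 0.57 (SE), adjusted p = 0.485; Hspa1b log2 change 1.37 ± 0.56 (SE), adjusted p = 0.477). Only 13.6% of the windows of 36 bases in the Hspa1b coding sequence are missing from Hspa1a, so counting of unique reads rests on a small part of each gene, and the ratio of Hspa1b to Hspa1a stayed between 1.06 and 1.27 over the 15 hearts. Hspa1a and Hspa1b are therefore uncertain as separate measurements.

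Hspa8, the constitutive Hsp70 of the cytosol and the most abundant member after Cryab and Hspb7, was at 811, 875 and 775 RPKM at 12 h, 938, 974 and 959 RPKM at 24 h, 666, 701 and 746 RPKM at 72 h and 739, 676 and 719 RPKM at 7 d, against 787, 654 and 751 RPKM in control hearts. The 24 h hearts were above all 12 others. The test did not pass (log2 change 0.39 ± 0.09 (SE), adjusted p = 0.144), and with the title code as a covariate, a fit that called 3.09% of all genes, it did (adjusted p = 0.0238). Hspa5 (BiP), the Hsp70 of the endoplasmic reticulum, stayed between 122 and 155 RPKM in the 15 hearts, with log2 changes against control between 0.01 at 7 d and 0.20 at 12 h. Of the remaining 4 genes, Hspa2, Hspa12a, Hspa12b and Hspa14, none was called, and their log2 changes at 7 d were between -0.24 and 0.13.

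The 2 nucleotide exchange factors of the Hsp110 type, Hspa4 and Hspa4l, were not called. Hspa4 missed the threshold for 7 d against 12 h (log2 change 0.34 ± 0.11 (SE), adjusted p = 0.0522), which it passed with the filter at 5 RPKM (adjusted p = 0.0471) and with the title code as a covariate (adjusted p = 0.0386). None of the 3 Hsp90 genes was called against control. Hsp90ab1 was at 589.5, 691 and 772 RPKM at 12 h, 662, 779 and 715 RPKM at 24 h, 650.4, 698 and 747 RPKM at 72 h and 579, 558 and 624 RPKM at 7 d, against 729.9, 667 and 759.6 RPKM in control hearts. The 7 d hearts were below all controls but did not pass (log2 change -0.29 ± 0.11 (SE), adjusted p = 0.0985), except with upper-quartile scaling (adjusted p = 0.0433).

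Hsp90aa1, the stress-inducible Hsp90, was at 89.2, 70.1 and 74.3 RPKM in the 7 d hearts, against 139.5, 89.8 and 92.5 RPKM in control hearts. At the earlier times it was at 111, 133 and 116 RPKM at 12 h, 153, 101 and 137 RPKM at 24 h and 80.3, 105 and 77.2 RPKM at 72 h. The 7 d hearts were below every control and every 12 h heart. It was called lower at 7 d against 12 h (log2 change -0.62 ± 0.19 (SE), adjusted p = 0.0383) but not against control (log2 change -0.44 ± 0.19 (SE), adjusted p = 0.17). The call at 7 d against 12 h was lost without 12 h heart 2 or 3 or 7 d heart 2 or 3, with adjusted p between 0.0801 and 0.139. Hsp90b1 (Grp94), the Hsp90 of the endoplasmic reticulum, had a log2 change of -0.01 at 7 d against control.

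Hspe1 and Hspd1, the mitochondrial Hsp10 and Hsp60, are a head-to-head pair on mm9 chromosome 1 (Hspe1 at 55144976 to 55148151 on the plus strand, Hspd1 at 55134679 to 55145087 on the minus strand). Hspe1 was at 199, 170.3 and 182 RPKM at 12 h, 238, 165 and 191 RPKM at 24 h, 203, 196 and 177 RPKM at 72 h and 152, 126 and 139 RPKM at 7 d, against 234, 166 and 176 RPKM in control hearts. Hspd1 was at 157, 146 and 143 RPKM at 12 h, 175, 149 and 152 RPKM at 24 h, 158, 162 and 148 RPKM at 72 h and 145, 114 and 119 RPKM at 7 d, against 161, 133 and 143 RPKM in control hearts. At 7 d the hearts had the 3 lowest Hspe1 values of the 15, while Hspd1 overlapped the controls. Neither passed at 7 d against control (Hspe1 log2 change -0.45 ± 0.15 (SE), adjusted p = 0.0676; Hspd1 log2 change -0.21 ± 0.11 (SE), adjusted p = 0.25), although Hspe1 did with the title code as a covariate (adjusted p = 0.00539) and without 24 h heart 1 (adjusted p = 0.0431). The annotated exons of the pair overlap on opposite strands, and whether counting used strand is not stated.

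**Figure D3:**
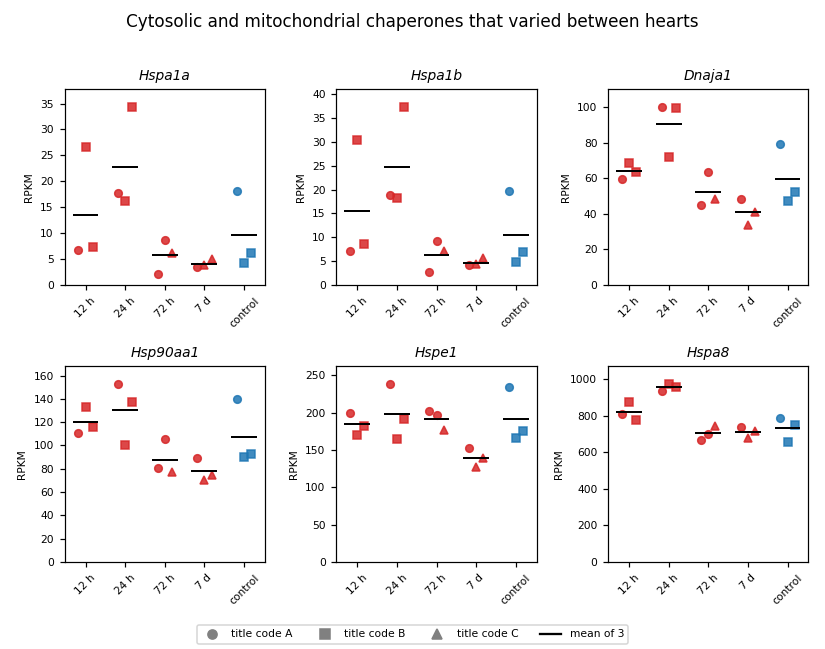
RPKM of 6 chaperone genes in each heart (red, induced; blue, control; lines, mean of 3 hearts; symbol, code of the sample title; axes start at 0). Hspa1a and Hspa1b scatter widely at 12 h, 24 h and 72 h and in the controls, and the 7 d hearts lie at 3.44 to 4.91 and 4.12 to 5.56 RPKM, and the 3 hearts of 24 h are the highest for Hspa8.

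DnaJ proteins of type A and B carry the J domain at their amino end and are the main partners of cytosolic Hsp70. Of 8 tested type B genes, Dnajb5 rose and Dnajb1 fell at 7 d against control, and of 4 type A genes none was called. Dnajb1 (Hsp40), the stress-inducible partner of Hsp70, had the largest change of any tested member called in this comparison. It was at 7.39, 7.67 and 7.14 RPKM in the 7 d hearts, against 22.6, 15.4 and 15.9 RPKM in control hearts. At the earlier times it was at 17.7, 26.7 and 19.6 RPKM at 12 h, 21.03, 18.4 and 23.6 RPKM at 24 h and 10.8, 13.7 and 14.1 RPKM at 72 h. The 7 d hearts were the 3 lowest of the 15, and the 72 h hearts were the next 3. The 7 d mean was 0.412 times the control mean (log2 change -1.20 ± 0.17 (SE), adjusted p = 0.000626), and the difference was -1.55 within code A. The 72 h hearts also lay below the 3 controls, without passing the test (log2 change -0.46 ± 0.17 (SE), adjusted p = 0.26).

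Dnajb5 was at 50.1, 48.9 and 53.7 RPKM in the 7 d hearts, against 32.4, 37.1 and 36.8 RPKM in control hearts. It was at 36.2, 37.2 and 36.3 RPKM at 12 h, 35.6, 42.96 and 37.1 RPKM at 24 h and 37.6, 35.6 and 46.1 RPKM at 72 h, and the 7 d hearts were the 3 highest of the 15 (log2 change 0.52 ± 0.11 (SE), adjusted p = 0.0076). Dnajb6, which keeps polyglutamine proteins and, in muscle, filamin from aggregating, was at 44.5, 35.8 and 36.3 RPKM in the 7 d hearts, against 31.8, 28.7 and 32.2 RPKM in control hearts. At the earlier times it was at 31.4, 29.8 and 25.4 RPKM at 12 h, 31.8, 30.8 and 27.2 RPKM at 24 h and 33.2, 34.6 and 34.5 RPKM at 72 h. Again the 7 d hearts were the highest 3, but only 7 d against 12 h passed (log2 change 0.42 ± 0.11 (SE), adjusted p = 0.0202), and the change against control missed (log2 change 0.32 ± 0.11 (SE), adjusted p = 0.0824). The call was lost without 12 h heart 3 or 7 d heart 1 (adjusted p = 0.0833 and 0.0733), with median-ratio or upper-quartile scaling (adjusted p = 0.141 and 0.149) and in the fit of the compared groups alone (adjusted p = 0.0976).

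Dnaja1, another cytosolic partner of Hsp70, was at 59.5, 68.7 and 63.3 RPKM at 12 h, 100.2, 71.8 and 99.5 RPKM at 24 h, 45.03, 63.7 and 48.6 RPKM at 72 h and 48.3, 33.7 and 40.9 RPKM at 7 d, against 79.2, 47.01 and 52.3 RPKM in control hearts. Its 7 d hearts were below every 12 h heart (log2 change -0.65 ± 0.20 (SE), adjusted p = 0.0413) and overlapped the controls (log2 change -0.51 ± 0.20 (SE), adjusted p = 0.127). Removal of any of 6 hearts ended the call against 12 h (12 h heart 2 or 3, 24 h heart 3, 7 d heart 2 or 3, or control heart 3), with adjusted p between 0.0506 and 0.172. Like Hsp90aa1, Hspe1 and Hspd1, Dnaja1 was highest in 24 h heart 1 and lowest in 7 d heart 2. Control heart 1 was the highest control for these 4 as well as for Hspa1a, Hspa1b, Dnajb1, Dnajb4 and Hspa8. For Hspb1 it was control heart 3 (303 RPKM, against 223 RPKM in control heart 1). Over the 57 tested members the highest control was heart 1 for 19, heart 2 for 18 and heart 3 for 20. The 5 other tested type B genes, Dnajb4, Dnajb9, Dnajb10 (the current Dnajb2), Dnajb11 and Dnajb12, were called in none of the 6 comparisons, and neither were Dnaja2, Dnaja3 and Dnaja4. Dnajb9 and Dnajb11, co-chaperones of BiP, had log2 changes of 0.24 and 0.11 at 7 d against control.

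Type C proteins share only the J domain and carry varied partners and compartments. Of 17 tested genes, 4 rose at 7 d against control and none fell. Dnajc7, whose TPR repeats bind both Hsp70 and Hsp90, was at 80.1, 73.6 and 74.2 RPKM in the 7 d hearts, against 53.2, 43.2 and 48.5 RPKM in control hearts. It was at 42.3, 42.7 and 43.2 RPKM at 12 h, 50.6, 42.9 and 45.6 RPKM at 24 h and 60.7, 63.2 and 57.5 RPKM at 72 h. The 7 d hearts were the highest 3 of the 15, the 72 h hearts came next and were above every remaining heart, and the 12 h hearts lay at or below the lowest control. The 7 d change was 0.65 ± 0.09 (adjusted p = 0.000637), that at 72 h 0.33 ± 0.09 (adjusted p = 0.149). Annotated exons of Dnajc7 (mm9 chromosome 11, 100444132 to 100481482, minus strand) overlap those of Cnp and Nkiras2 on the other strand.

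Dnajc11, a protein of mitochondrial membranes linked to the cristae junction complex, was at 31.2, 34.5 and 37.04 RPKM in the 7 d hearts, against 18.7, 23.7 and 26.02 RPKM in control hearts. It was at 20.8, 20.8 and 23.02 RPKM at 12 h, 19.95, 26.3 and 23.6 RPKM at 24 h and 26.3, 28.9 and 31.7 RPKM at 72 h. The 7 d hearts were above every control heart and 72 h heart 3 reached their range, and the change at 7 d was 0.58 ± 0.13 (adjusted p = 0.0127). Removing 7 d heart 2, 7 d heart 3 or control heart 1 left adjusted p between 0.0511 and 0.0587. Dnajc12, a co-chaperone of the aromatic amino acid hydroxylases, was at 11.4, 11.3 and 10.6 RPKM in the 7 d hearts, against 6.33, 5.87 and 7.82 RPKM in control hearts. It was at 6.30, 7.31 and 11.04 RPKM at 12 h, 7.50, 7.94 and 6.83 RPKM at 24 h and 8.24, 9.80 and 8.80 RPKM at 72 h, so that 12 h heart 3 reached the 7 d range (log2 change 0.70 ± 0.17 (SE), adjusted p = 0.0154). This call ended without 7 d heart 2, control heart 1 or control heart 2 (adjusted p between 0.0551 and 0.0761).

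Dnajc5 (cysteine string protein), known from synaptic vesicles, was at 22.7, 23.2 and 26.7 RPKM in the 7 d hearts, against 19.1, 19.5 and 17.7 RPKM in control hearts. At the earlier times it was at 19.5, 17.4 and 17.2 RPKM at 12 h, 18.9, 18.95 and 15.8 RPKM at 24 h and 22.9, 23.7 and 23.1 RPKM at 72 h. The hearts of 72 h and 7 d were all above the other 9. The change of 0.36 ± 0.10 had the highest adjusted p of the 10 calls (adjusted p = 0.0377), and it was lost on removal of any of 8 hearts (12 h heart 2, 72 h heart 1, any 7 d heart or any control heart), with adjusted p between 0.0509 and 0.152, and with upper-quartile scaling (adjusted p = 0.0642).

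Dnajc16 and Dnajc18 were called at 7 d against 12 h alone. Dnajc16 was at 9.16, 9.26 and 9.90 RPKM in the 7 d hearts, against 7.82, 6.51 and 4.80 RPKM in 12 h hearts (log2 change 0.56 ± 0.15 (SE), adjusted p = 0.0252), and at 6.14, 6.99 and 6.10 RPKM at 24 h, 6.66, 6.61 and 8.71 RPKM at 72 h and 7.26, 8.29 and 8.38 RPKM in control hearts. Dnajc18 was at 9.77, 8.34 and 8.48 RPKM in the 7 d hearts, against 8.44, 5.36 and 4.41 RPKM in 12 h hearts (log2 change 0.55 ± 0.17 (SE), adjusted p = 0.0417), and at 6.08, 6.70 and 5.64 RPKM at 24 h, 7.62, 7.16 and 7.21 RPKM at 72 h and 7.07, 7.18 and 6.14 RPKM in control hearts. For Dnajc18 the 7 d and 12 h hearts overlapped through 12 h heart 1. The Dnajc16 call was lost without 12 h heart 2 or 3 or 7 d heart 2 or 3 (adjusted p between 0.0585 and 0.1001), and the Dnajc18 call without any of 12 hearts, that is all but 12 h heart 1, 24 h heart 1 and 72 h heart 3 (adjusted p between 0.0503 and 0.167). The 11 type C genes called in none of the 6 comparisons were Dnajc15 and Dnajc19, which belong to the mitochondrial import motor, Dnajc3a (the current Dnajc3), Dnajc10 and Dnajc1 of the endoplasmic reticulum, Dnajc2, which sits on ribosomes, Dnajc8, a splicing factor, and Dnajc4, Dnajc9, Dnajc14 and Dnajc17. Their log2 changes at 7 d against control were between -0.23 (Dnajc8) and 0.30 (Dnajc1).

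None of the 3 tested heat shock factors was called. Hsf1, which switches on the inducible chaperone genes, was between 16.0 and 25.4 RPKM in the 15 hearts, with a log2 change of 0.17 ± 0.16 at 7 d against control (adjusted p = 0.584). Hsf2 and Hsf4, the second of which is best known from the lens, had changes of -0.09 and -0.38. Hspbap1, a protein that binds Hspb1, averaged 1.37 RPKM, had a change of -0.12 and was not called. A missed threshold does not show that these 4 genes stayed the same.

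**Figure D4:**
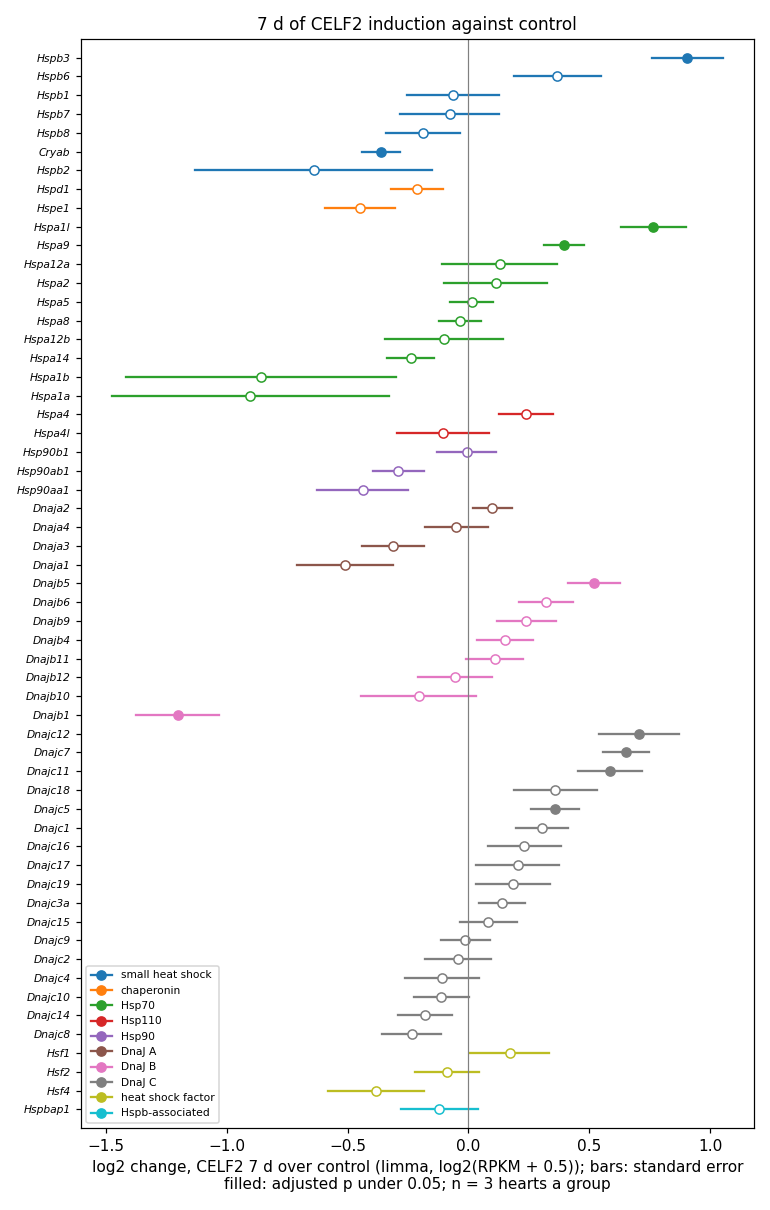
Log2 change of the 57 tested members at 7 d against control by class (points, limma on log2(RPKM + 0.5), 3 hearts a group; bars, standard error; filled points, adjusted p under 0.05). Filled points run from Dnajb1 at -1.20 to Hspb3 at 0.91, 8 to the right of 0 and 2 to the left, and the open points of Hspa1a and Hspa1b have the widest bars.

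The hearts at 7 d were also compared with those at 12 h, which asks how the induced hearts themselves changed over time with no control heart in the difference. Here 12 of the 57 members passed, 9 higher and 3 lower (21.1%, beside 15.6% of all genes). By direction these were 15.8% higher and 5.26% lower, beside 11.8% and 3.88% of all genes. Of these 12, 7 were also among the 10 called against control: Dnajb1, Dnajb5, Dnajc11, Dnajc5, Dnajc7, Hspa1l and Hspb3. These comparisons share the 7 d hearts. Dnajc7 had the smallest adjusted p (log2 change 0.82 ± 0.09 (SE), adjusted p = 8.98e-05), followed by Dnajb1 (log2 change -1.44 ± 0.17 (SE), adjusted p = 0.000127) and Hspa1l (log2 change 0.80 ± 0.13 (SE), adjusted p = 0.00149). The others were Hspb3 (0.76 ± 0.15), Dnajc11 (0.65 ± 0.13), Dnajb5 (0.47 ± 0.11) and Dnajc5 (0.41 ± 0.10), with adjusted p between 0.0038 and 0.0142.

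Median-ratio scaling gave a median change of all genes of 0.01 in this comparison, and so did upper-quartile scaling, against 0.13 with the values as deposited. The members' split then became 6 higher and 9 lower or 6 higher and 8 lower. Shares of all genes called higher and lower in these scaled fits are not given. The split is therefore not a result about the members. In both scalings Cryab, Dnaja3, Dnajc9, Hsp90ab1 and Hspa8 were added on the lower side (with median-ratio scaling Hspa5 too), and Dnajb6, Dnajc5 and Dnajc18 were lost from the higher side. Y-linked mRNA summed to at least 58.6 RPKM in every 7 d heart and to at most 0.06 RPKM in every 12 h heart, so that time and this difference cannot be told apart. With that level as a covariate Dnajb1 and Dnajc7 kept their calls, beside 2.43% of all genes called in that fit. Without the hearts of code C only heart 1 is left at 7 d, so calls of that fit are not counted. Its log2 changes were 0.72 for Hspa1l, 0.59 for Hspb3 and -0.40 for Dnaja1. With the title code as a covariate 7 kept their calls (Dnaja1, Dnajc5, Dnajc16, Dnajc18 and Hsp90aa1 did not). In that fit 3 further members were called (Hspa4, Hspb6 and Hspe1), with 8 higher and 2 lower in all, beside 12.9% of all genes. Without a filter on low values 9 kept their calls (Dnaja1, Dnajc18 and Hsp90aa1 did not). With the compared groups alone 8 did (Dnajb6, Dnajc5, Dnajc16 and Dnajc18 did not). Within code A the 12 differences were between 0.2 and 1.2 in size. They were more than 1.5 times smaller than the fitted ones for Dnajc5, Dnaja1, Hsp90aa1, Dnajc16 and Dnajc18. All 12 had the direction of the call, which was fixed for the 11 whose groups did not overlap. The Dnajc5 call was lost without 12 h heart 2 or 7 d heart 3 (adjusted p = 0.0559 and 0.0714). Leaving out single hearts gave between 7 (without 12 h heart 2 or 7 d heart 3) and 17 calls (without 12 h heart 1), with the shares of all genes not given. Immediate early genes were lower in the same comparison, 5 of 14, among them Fos (-2.18 ± 0.42, adjusted p = 0.00356), and their part in the members' values was not tested.

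**Figure D5:**
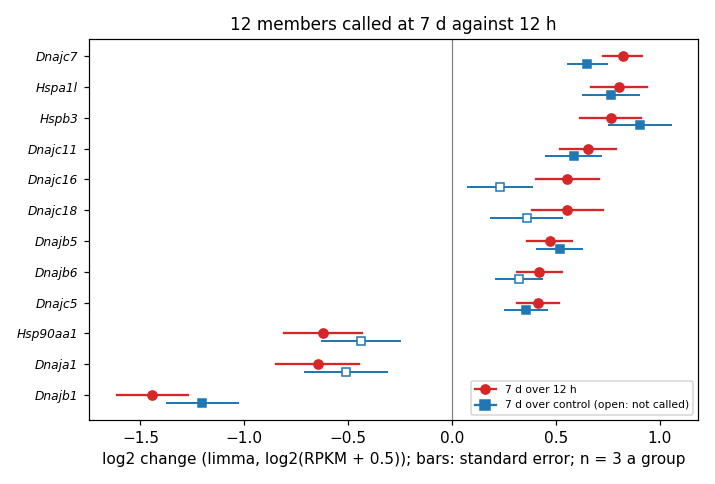
Log2 change of the 12 members called at 7 d against 12 h (red circles) with the change of the same genes at 7 d against control (blue squares, open where not called); bars are standard errors, 3 hearts a group. Changes against 12 h run from 0.82 for Dnajc7 to -1.44 for Dnajb1, and Dnaja1, Hsp90aa1, Dnajb6, Dnajc16 and Dnajc18 have open squares.

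Promoter windows of 300 bases, from 250 before to 50 after the start, were read for 50 of the 64 members from RefSeq (GRCm38.p6). Some genes had several starts, which gave 66 windows, and both strands were searched for heat shock elements. The other members had no window and were not searched: Cryab, Hspb2, Hspa8, Hspa9, Hsp90aa1, Hsp90ab1, Hsf1, Hsf4, Dnajc2, Dnajc5, Dnajc5b, Dnajc11, Dnajc12 and Dnajc18. An element of 3 units (GAANNTTCNNGAA or TTCNNGAANNTTC) was present at 3 member genes, Hspe1, Hspd1 and Dnajb6. These were 4 of 66 windows, beside 0.603% of all 32851 windows. Both Dnajb6 windows hold the same site, and the matching Hspe1 and Hspd1 windows hold the same bases. The 4 windows are thus not separate sites. The shorter element of 2 units (GAANNTTC or TTCNNGAA, which every longer one contains) was present in 16 of 66 windows, beside 15.1% of all. Those of the inducible Hsp70 pair, of Dnaja1 and of Hspb3 are shown with the longer ones because these genes varied most between hearts or were called, and capitals mark the element. Such a match is a description of letters and not a binding site. In the Dnajb1 windows neither form occurred, which says only that these letters are not in the bases read.

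Hspe1: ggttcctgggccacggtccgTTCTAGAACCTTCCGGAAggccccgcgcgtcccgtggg
Dnajb6: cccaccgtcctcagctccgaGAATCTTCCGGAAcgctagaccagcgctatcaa
Hspa1b: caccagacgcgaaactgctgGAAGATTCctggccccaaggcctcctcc
Dnaja1: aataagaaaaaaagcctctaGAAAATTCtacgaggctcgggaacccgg
Hspb3: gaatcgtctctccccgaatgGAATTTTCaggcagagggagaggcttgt

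These stretches are chr1:55088039-55088096, plus strand (Hspe1), chr5:29735832-29735884, plus strand (Dnajb6), chr17:34959315-34959362, minus strand (Hspa1b), chr4:40722324-40722371, plus strand (Dnaja1) and chr13:113663873-113663920, minus strand (Hspb3), all on GRCm38.p6. The Hspe1 stretch is also the Hspd1 promoter read from the other strand, since these genes start back to back, and it holds 2 overlapping elements. The same 48 bases as at Hspa1b stand before Hspa1a, at chr17:34972233-34972280, minus strand. The nearest element begins 84 bases before the Hspe1 start, 104 before Hspa1a and Hspa1b, 124 before Dnaja1 and 224 before Hspb3. Of the genes shown, Hspb3 and Dnajb6 were called higher and Dnaja1 lower at 7 d in at least 1 comparison. Being called was a reason for showing some of them, so this does not link the element to a call.

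Partner genes that do not carry the member symbols were counted from lists. Beside all list counts below, 5.83% of all genes were higher and 4.16% lower at 7 d against control. At 7 d against 12 h these shares were 11.8% and 3.88%. Among 32 tested cofactors of Hsp70 and Hsp90, Grpel1 (the nucleotide exchange factor of mitochondrial Hspa9) was higher at 7 d against control (0.40 ± 0.09, adjusted p = 0.009) and Sil1 (the exchange factor of BiP) lower (-0.59 ± 0.17, adjusted p = 0.0436). At 7 d against 12 h, 3 cofactors were higher and none lower (Grpel1, Grpel2 and Ttc1). Of 14 mitochondrial proteases and chaperones, 3 were higher and none lower at 7 d against control: Clpb (0.61 ± 0.11, adjusted p = 0.00238), Afg3l2 (0.45 ± 0.08, adjusted p = 0.00304), a protease of the inner membrane, and Bcs1l (0.41 ± 0.12, adjusted p = 0.0444), an assembly factor of respiratory complex III. Against 12 h there were 5 higher and none lower, with Tomm20 and Lonp1 added.

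Of 24 genes of folding in the endoplasmic reticulum and the unfolded protein response, 3 were higher and 1 lower at 7 d against control: Ero1l (0.78 ± 0.13, adjusted p = 0.00129), Derl2 (0.60 ± 0.15, adjusted p = 0.0167) and Derl1 (0.45 ± 0.11, adjusted p = 0.0166) against the transcription factor Atf4 (-0.41 ± 0.11, adjusted p = 0.033). Against 12 h there were 5 higher, with Ddit3 and P4hb added, and 1 lower. The 13 genes of the cytosolic TRiC chaperonin and prefoldin had none called against control and 2 higher against 12 h (Cct5 and Pfdn2). None of the 5 J-domain proteins named without Dnaj was called. The median log2 changes at 7 d against control were 0.04 for the cofactors, 0.18 for the mitochondrial list, 0.09 for the endoplasmic reticulum list and 0.07 for TRiC and prefoldin, beside 0.03 for all genes.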

How the data were processed

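Ventricle poly(A)+ RNA was sequenced in 15 hearts. The authors mapped paired reads to mm9, and the submitters' processing notes name Bowtie and TopHat without versions. The authors deposited RPKM values, that is uniquely mapping reads on the constitutive coding sequence of a RefSeq gene, divided by its length in kilobases and by the library's mapped reads outside ribosomal and mitochondrial sequence. Values have 2 decimals, 10.8% are 0, and no column was left unused. Groups came from the sample labels, whose mention of a Celf1 cassette is at odds with the genotype and was not used. Each group had 3 hearts, with a number of its own in each title.

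Limma 3.58.1 (R 4.3.3) was fitted with a trend to log2(RPKM + 0.5) of the genes that averaged 1 RPKM or more, with all 5 groups in a single fit. Fold changes are on that scale, which understates the change of low genes. A gene was called when its Benjamini-Hochberg adjusted p over 10557 genes was under 0.05. The fit was tested on simulated data. The text names every member, with values in every heart for those called in any of 6 comparisons and the 10 most abundant, and list genes where called. Members and lists were chosen with earlier results of these data known. Alternatives were 2 other pseudocounts, 2 other filters, 2 scalings, the title code or Y-linked level as a covariate, the compared groups alone and leaving out each heart. A fit with both covariates and one without code C were added after seeing the data. All 64 members matched RefSeq and 63 an mm9 gene of GENCODE vM1, which gave coordinates; promoter windows are RefSeq, GRCm38.p6. Python 3.11.15 was used for tables and figures.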

Additional observations from a re-analysis of the deposited data

Results flagged for a closer look

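The change from control differed between 7 d and 12 h for 12 members, tested as 7 d against 12 h, since the same controls cancel. These were 21.1% of the tested members, beside 15.6% of all genes. The difference on the log2 scale was 0.82 for Dnajc7, 0.80 for Hspa1l, 0.76 for Hspb3, 0.65 for Dnajc11, 0.56 for Dnajc16, 0.55 for Dnajc18, 0.47 for Dnajb5, 0.42 for Dnajb6 and 0.41 for Dnajc5. It was -0.62 for Hsp90aa1, -0.65 for Dnaja1 and -1.44 for Dnajb1. Y-linked mRNA summed to at least 58.6 RPKM in every 7 d heart and to at most 0.06 RPKM in every 12 h heart, and the clock genes Per2, Per3, Tef and Hlf were called higher in the same comparison.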

How the results depend on the processing

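The 22 calls of single members at 7 d kept their direction in every alternative. All 22 held with either other pseudocount and with the filter at 5 RPKM, 19 without a filter, 19 with median-ratio and 18 with upper-quartile scaling, 16 with the title code as a covariate, 7 with the Y-linked level as a covariate, and 17 in fits of the compared groups alone. With the title code as a covariate 1 member was called at 24 h (Hspa8, higher), beside 3.09% of all genes in that fit, and 3 at 72 h (Dnajc11 and Hspa1l higher, Dnaja4 lower), beside 4.69%, against 0 in the fit reported. For 7 d against control, 5 members in place of 10 were called with the Y-linked level as a covariate. Of all genes 4.11% were called in that fit, in place of 9.99%. With both covariates it was 1 member, beside 1.78% of all genes, and leaving out single hearts gave between 7 and 11. For 7 d against 12 h, 2 members in place of 12 were called with the Y-linked level. Of all genes 2.43% were then called, in place of 15.6%. With both covariates it was 0 members, beside 0.739% of all genes, and leaving out single hearts gave between 7 and 17. Shares of all genes are not given beside the counts from leaving out hearts, for either comparison. Without code C only heart 1 is left at 7 d, so calls of that fit are not counted. Log2 changes of 9 uncalled members at 7 d against control lay near 0 and took the other sign in some fits, so they carry no direction. For Hspa5 they were -0.012 with median-ratio and -0.027 with upper-quartile scaling, -0.066 with the title code and -0.15 with both covariates, and between -0.048 and 0.050 leaving out single hearts. For Hspa2 they were -0.23 with the Y-linked level, -0.30 with both covariates and -0.11 without code C (leaving out hearts, -0.036 to 0.25), and for Hsp90b1 0.14, 0.063 and 0.12 (-0.071 to 0.090). Hsf2 was at 0.092 with the Y-linked level and 0.055 without code C (leaving out hearts, -0.17 to 0.0078), and Hspb1 at 0.016 with the title code (-0.19 to 0.053). Dnajb11 was at -0.014 with the title code and -0.12 without code C, and Hspa12a at -0.094 with the title code and -0.51 with both covariates. Leaving out hearts gave -0.20 to 0.085 for Hspb7 and -0.32 to 0.11 for Hspa12b. The causes were not tested, beyond the fewer hearts or degrees of freedom that these fits leave. No paired analysis was possible because the labels carry no replicate numbers shared between groups. With 3 hearts a group and unknown depth, small changes of low or variable members such as Hspa1a could not be resolved.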
